A study of Mus musculus with 10 samples.

Results

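The 9 Pax genes, Pax1 to Pax9, were described by the H3K4me3 and ATAC-seq peaks at and around their starts in mouse embryonic stem cells. They were chosen by gene name, as all Pax genes among the 21938 protein-coding genes of the GENCODE M21 annotation on chromosomes 1 to 19, X and Y of mm10. Both assays were run on the stem cell line F123, which derives from crossed castaneus and S129/SvJae mice. The cells were grown on feeder cells and then passaged 1 time without them, and no treatment or edited allele is stated for them. ChIP-seq pulled down chromatin with H3K4me3, a histone mark of gene starts, and gave 33487 peaks, each with a fold enrichment over the background of the peak caller. ATAC-seq, which cuts accessible DNA with the Tn5 transposase, gave 179109 peaks with positions and no strength. Each list stands for 2 replicates, without read counts, so depth is unknown, no value below has a spread between replicates, and no difference was tested.

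Pax proteins are transcription factors that bind DNA through the paired domain, and most are switched on in particular tissues of the embryo. By structure they form 4 subgroups, Pax1 and Pax9, Pax2 with Pax5 and Pax8, Pax3 and Pax7, and Pax4 and Pax6, whose members differ in whether they carry an octapeptide and a whole, partial or no homeodomain. In embryonic stem cells most such developmental regulators are expressed at low levels or not at all, and many are known to carry H3K4me3 together with the Polycomb mark H3K27me3, which was not among the data analysed here.

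Promoter sequences of the Pax genes are shown first, because H3K4me3 is known to lie over DNA rich in the dinucleotide CpG. RefSeq (GRCm38.p6) gave 10 promoters for 7 of the 9 genes, each 300 bases long, and none for Pax3 and Pax4. The 250 bases before the RefSeq start are printed below, 5′ to 3′ in the direction of the gene, for 5 of those that hold no annotated exon there. The stretches of Pax9 and of a Pax2 promoter further upstream also hold none and are not printed. They had 7 and 5 CpG. Capitals mark each CpG.
Pax1, chr2:147364744-147364993, plus strand: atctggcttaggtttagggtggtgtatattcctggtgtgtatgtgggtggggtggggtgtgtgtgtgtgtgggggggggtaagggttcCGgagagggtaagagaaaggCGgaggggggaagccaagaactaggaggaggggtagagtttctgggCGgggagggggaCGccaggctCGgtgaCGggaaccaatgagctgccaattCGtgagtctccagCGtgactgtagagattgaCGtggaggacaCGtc
Pax2, chr19:44755502-44755751, plus strand: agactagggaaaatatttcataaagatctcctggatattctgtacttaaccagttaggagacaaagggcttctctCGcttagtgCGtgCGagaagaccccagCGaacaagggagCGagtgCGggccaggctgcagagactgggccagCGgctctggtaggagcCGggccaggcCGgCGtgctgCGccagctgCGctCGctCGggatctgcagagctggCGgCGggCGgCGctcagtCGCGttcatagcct
Pax5, chr4:44710695-44710944, minus strand: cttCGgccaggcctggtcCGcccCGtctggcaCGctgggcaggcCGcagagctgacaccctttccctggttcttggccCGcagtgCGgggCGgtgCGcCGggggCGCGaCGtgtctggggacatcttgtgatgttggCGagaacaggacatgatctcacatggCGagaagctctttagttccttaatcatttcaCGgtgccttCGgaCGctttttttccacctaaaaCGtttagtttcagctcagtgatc
Pax6, chr2:105668646-105668895, plus strand: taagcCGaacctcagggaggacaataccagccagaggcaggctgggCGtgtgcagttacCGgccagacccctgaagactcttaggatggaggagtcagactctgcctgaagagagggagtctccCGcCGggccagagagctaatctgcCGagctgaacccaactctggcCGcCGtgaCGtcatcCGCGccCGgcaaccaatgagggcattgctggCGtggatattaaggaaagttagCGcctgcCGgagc
Pax8, chr2:24475600-24475849, minus strand: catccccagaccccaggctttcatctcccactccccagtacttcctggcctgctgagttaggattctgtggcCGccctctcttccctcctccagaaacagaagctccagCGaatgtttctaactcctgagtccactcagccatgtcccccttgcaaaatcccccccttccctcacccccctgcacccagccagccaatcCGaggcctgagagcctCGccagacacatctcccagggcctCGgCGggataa
The stretches of Pax2 and Pax5 held 20 and 19 CpG, that of Pax6 held 15, that of Pax1 held 10, and that of Pax8 held 6. Over whole promoters, the 10 Pax entries had a median of 16.5 CpG and a GC content of 58.8%. The 21263 promoters of protein-coding genes had medians of 13 CpG and 56.3%, and those with a start under an H3K4me3 peak had 21 CpG. The GC box GGGCGG, searched on both strands, was found in 6 of the 10 Pax promoters. This compares with 46.2% of all promoters and 67.8% of those with a start under an H3K4me3 peak, and the Pax count lies near the latter. Neither TATAAA nor the octamer ATGCAAAT was found on either strand in the 10, against 12.6% and 1.66% of all promoters, and 6.16% and 1.34% of those under H3K4me3. All 10 RefSeq starts lay under an H3K4me3 peak, against 62.6% of RefSeq starts in general. Some of the 10 belong to the same gene, and starts that share a peak are not separate observations. Pax4, none of whose GENCODE starts lay under H3K4me3, is not among them. An ATAC-seq peak covered 8 of the 10, against 64.2% of all RefSeq starts and 94.7% of those under H3K4me3.

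H3K4me3 covered the main start, taken as the 5′ end of the gene record, of 7 of the 9 Pax genes, against 61.1% of all protein-coding genes. The 2 without a peak there were Pax4 and Pax5. An ATAC-seq peak covered the main start of 5 genes, Pax3, Pax6, Pax7, Pax8 and Pax9, against 62.5% of protein-coding genes, and the same 5 genes had both peaks, against 57.3%. The ATAC-seq counts lie near these shares. With a peak accepted within 1 Kb of the main start, ATAC-seq was found at 8 genes, all but Pax4, against 71.0% of protein-coding genes. By the midpoint of the peak, within 500 bp of the start, H3K4me3 was found at 3 genes, against 41.4%. Within 10 Kb of the main start all 9 genes had at least 1 H3K4me3 peak, against 72.3% of protein-coding genes, and at least 1 ATAC-seq peak, against 87.5%.

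Most Pax genes stood high among protein-coding genes in how much of the surrounding 20 Kb was marked. The 9 windows held 40 H3K4me3 peaks, with a median of 5 per gene against 1 over all protein-coding genes. Their summed width, with whole peaks counted, had a median of 8769 bp against 2023.5 bp. Among the 15870 genes with a peak in the window the median was 2645 bp. In share of the window, H3K4me3 covered 8.38% at Pax4 to 69.6% at Pax6, with a median of 43.8% against 9.96%. Their strongest peaks were weaker than those of most marked genes, with a median fold enrichment of 15.4 against 31.4 over genes with a peak in the window. ATAC-seq gave the Pax genes a median of 6 peaks and 3236 bp per window, against 2 peaks and 1342 bp.

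**Figure D1:**
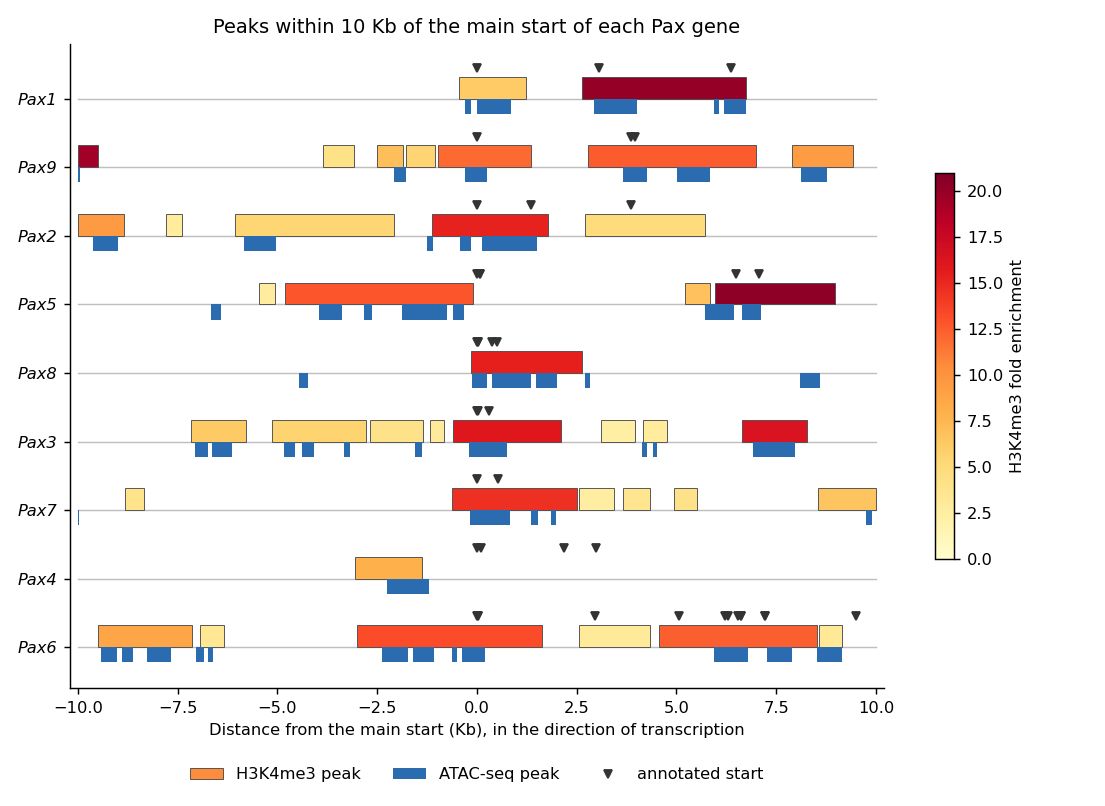
Peaks within 10 Kb of the main start of each Pax gene, with distance in Kb along the direction of transcription on the horizontal axis and genes on the vertical axis. Upper boxes are H3K4me3 peaks coloured by fold enrichment, lower boxes are ATAC-seq peaks, triangles are annotated starts, and peaks are drawn to the window's edge. Pax3 has 8 H3K4me3 peaks, and Pax4 and Pax8 have 1 each.

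Pax6, which directs the formation of the eye, parts of the brain and the endocrine pancreas, had the largest summed H3K4me3 width of the family in this window. With peaks of −log10 q of at least 10 only, Pax2 passed it, with 11246 bp against 10965 bp. The 6 peaks of Pax6 summed to 13925 bp, more than at 99.9% of protein-coding genes. The peak over its main start (chr2:105665900-105670531, mm10) spanned 4632 bp at a fold enrichment of 13.2, and it also covered the start of the antisense gene Pax6os1. A further peak of 3973 bp and 12.5-fold enrichment covered 8 annotated start positions between 5063 and 7229 bp downstream of the main start. Upstream, a peak of 2360 bp in an intron of Pax6os1 covered the start of the long noncoding RNA gene Paupar and had a fold enrichment of 8.76. The window also held 12 ATAC-seq peaks that summed to 5572 bp, and all 12 touched an H3K4me3 peak.

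Pax4, which acts in the formation of insulin-producing cells of the pancreas and shares a subgroup with Pax6, had the least of both signals. Its single H3K4me3 peak (chr6:28450734-28452409) spanned 1676 bp at a fold enrichment of 8.02. It lay upstream in intergenic sequence, 1381 bp from the main start, and the single ATAC-seq peak of 1038 bp lay 1208 bp from that start. None of the 3 start groups of Pax4 was covered by either kind of peak. In summed H3K4me3 width Pax4 exceeded 42.3% of protein-coding genes, and Pax6 had 8.31 times its width, 6 peaks against 1, and 12 ATAC-seq peaks against 1. With −log10 q of at least 10, Pax6 exceeded Pax4 by 2 H3K4me3 peaks in place of 5.

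Pax2, a regulator of the kidney, the optic stalk and the inner ear, had 5 H3K4me3 peaks with a summed width of 11645 bp. The strongest (chr19:44754930-44757831) covered the main start, was 2902 bp wide and had a fold enrichment of 15.4. A weaker peak of 3980 bp and 5.44-fold enrichment lay upstream of it. A peak further upstream, at 9.53-fold, covered a RefSeq start of Pax2 that lies -9444 bp from the GENCODE main start. No ATAC-seq peak covered the main start, the nearest being 131 bp away, but ATAC-seq peaks covered all 3 RefSeq starts of the gene.

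Pax5, which commits progenitors to the B-cell lineage and acts at the midbrain-hindbrain boundary, had its H3K4me3 on either side of the main start rather than over it. A peak of 4708 bp (chr4:44710593-44715300, 12.8-fold) ended 106 bp upstream of the GENCODE start. The RefSeq start of Pax5 lies -207 bp from the GENCODE start and fell inside that peak. The strongest peak within 10 Kb of any Pax main start (chr4:44701514-44704531) spanned 3018 bp at a fold enrichment of 20.3, had its summit in an intron at 6242 bp, and covered the alternative starts at 6481 and 7074 bp. Pax5 also had 7 ATAC-seq peaks in the window, and the closest lay 335 bp from the main start.

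Pax8, needed for the thyroid follicle and active in the kidney, had 1 H3K4me3 peak (chr2:24472974-24475745) of 2772 bp and 15.4-fold enrichment. The peak covered the main start and reached almost entirely into the gene, with 146 bp before the start and 2625 bp after it. Its summed width exceeded that of 66.4% of protein-coding genes. The 6 ATAC-seq peaks of Pax8 summed to 2745 bp, and only 3 of them touched an H3K4me3 peak, the smallest share among the 9 genes. Within its subgroup, Pax2 had 4.20 times and Pax5 had 3.16 times the summed H3K4me3 width of Pax8. Within 5 Kb Pax5 exceeded Pax8 by 1936 bp, against 5997 bp within 10 Kb. In strength, however, the strongest peaks of Pax2 and Pax8 were close, with fold enrichments of 15.35 and 15.44.

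Pax3, a regulator of the neural crest and of muscle progenitors, had 8 H3K4me3 peaks with a summed width of 11232 bp, the largest number in the 10 Kb windows. With −log10 q of at least 10 it kept 4, against 6 at Pax9, and within 20 Kb Pax3 and Pax7 both had 11. The peak over its main start (chr1:78195037-78197738) spanned 2702 bp at a fold enrichment of 16.0. A peak of 1634 bp in an intron, with its summit at 7450 bp, covered no annotated start of Pax3 and reached 16.5-fold. Within 20 Kb the strongest peak of Pax3 reached 34.9-fold, against 14.6-fold at Pax7. The other 6 peaks had fold enrichments of 2.37 to 6.27. All 10 ATAC-seq peaks of the window touched an H3K4me3 peak.

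Pax7, which marks the satellite cells of skeletal muscle, had 6 H3K4me3 peaks with a summed width of 7673 bp, of which 3143 bp belonged to the 14.6-fold peak over both of its start groups (chr4:139831022-139834164). Its other 5 peaks reached at most 6.70-fold. Pax3 had 1.46 times the summed H3K4me3 width of Pax7 and 2.02 times its summed ATAC-seq width, 3952 bp against 1958 bp.

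Pax9, a regulator of teeth, palate and thymus, had 7 H3K4me3 peaks with a summed width of 11690 bp. The peak over the main start (chr12:56690791-56693118, 12.0-fold) also covered the start of the antisense gene Gm15524, and a wider peak of 4216 bp (12.6-fold) covered the start group at 3872 to 3962 bp. The strongest peak that touched the window reached 19.5-fold in intergenic sequence. It spanned -10987 to -9496 bp, and its summit, at -10289 bp, lay outside the window.

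Pax1, which acts with Pax9 in the forming vertebral column, had 2 H3K4me3 peaks with a summed width of 5801 bp, 0.496 times that of Pax9. The difference, -5889 bp from the main starts, was -2798 bp from the principal starts. The peak over its main start (chr2:147361470-147363157) was the weakest of the 7 over a main start, at 6.19-fold. The other (chr2:147364558-147368670) was 4113 bp wide, reached 20.1-fold and covered the starts at 3069 and 6357 bp. The first of these is the start of the principal transcript in the APPRIS annotation and also the RefSeq start. An ATAC-seq peak began 10 bp downstream of the main start and a separate peak of 1089 bp covered the start at 3069 bp.

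In order of summed H3K4me3 width the genes ran Pax6, Pax9, Pax2, Pax3, Pax5, Pax7, Pax1, Pax8 and Pax4. The first 6 exceeded 96.9% or more of protein-coding genes and Pax1 exceeded 92.7%. By the fold enrichment of the strongest peak the order was Pax5, Pax1, Pax9, Pax3, Pax8, Pax2, Pax7, Pax6 and Pax4, with the widest gene next to last. This order depends on the window. Within 5 Kb Pax5 had 12.8-fold and Pax9 12.6-fold, both below Pax6 at 13.2-fold, and within 20 Kb Pax3 came first. Pax9 was also at 12.6-fold by peak midpoints or from the principal start. Among genes with a peak in the 10 Kb window, all 9 strongest peaks ranked low: Pax5, the highest, exceeded 24.3% of these genes, and Pax4 exceeded 7.57%. Peaks over the 7 covered main starts had a median width of 2772 bp against 2203 bp over protein-coding genes, and a median fold enrichment of 14.6 against 31.3. With no replicate values, it cannot be said which neighbours in these orders differ beyond their error.

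**Figure D2:**
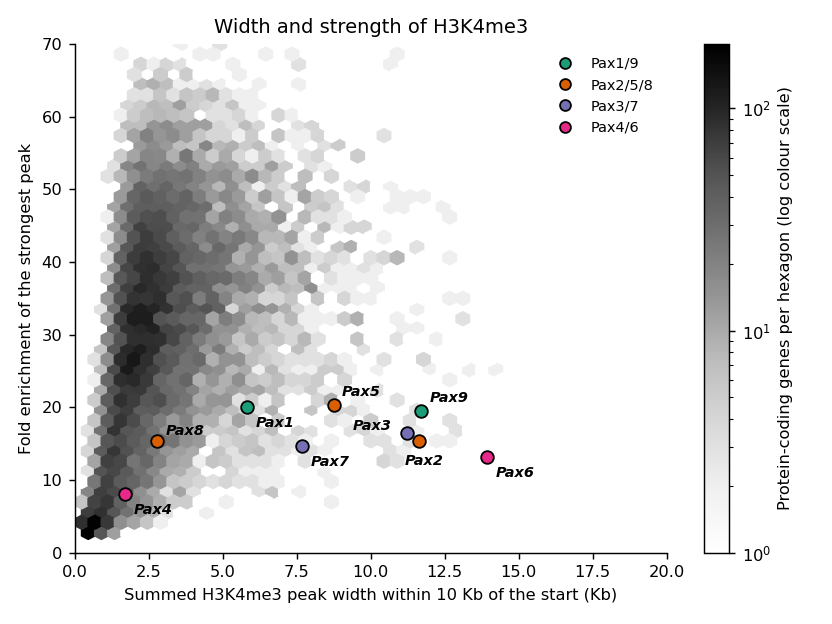
Summed H3K4me3 peak width within 10 Kb of the main start, in Kb, against the fold enrichment of the strongest peak, for protein-coding genes with a peak in the window (grey hexagons, darker for more genes, log colour scale, axes limited to 20 Kb and 70-fold) and for the 9 Pax genes (points, coloured by subgroup). The Pax genes lie between 8.02-fold and 20.3-fold, and 7 of them have a summed width of 5801 bp or more.

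The marked sequence was spread between the starts and their surroundings. Of the 40 H3K4me3 peaks, 13 covered an annotated start of the Pax gene in question, with a median width of 3002 bp and a median fold enrichment of 13.2. They made up 53.6% of the summed width. The other 27 had medians of 858 bp and 5.44-fold. By summit, 14 peaks were intergenic, 13 intronic, 7 in untranslated exon sequence, 5 in coding exons and 1 in a noncoding exon. The intronic ones include peaks in introns of the antisense genes Pax6os1 and Gm15524, among them the peaks over the main starts of Pax6 and Pax9. The same shares over the whole list were not computed. Neighbouring peaks of a gene were separated by a median of 649 bp, and 13 of the 31 gaps were under 250 bp. The number of peaks may depend on how the peak caller divided a marked stretch. Near peaks were not merged, so this was not tested.

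Most accessible sites in the windows touched the marked stretches, by at least 1 bp. Of the 57 ATAC-seq peaks in the 9 windows, 53 (93.0%) touched an H3K4me3 peak, against 51.9% in the windows of all protein-coding genes, which include genes without H3K4me3. In the windows of the 15870 genes with an H3K4me3 peak it was 58.4%. In the windows of T-box, Sox and Forkhead genes it was 86.3%, 84.5% and 69.9%. H3K4me3 covered more of the Pax windows, as given above, and the part of this cover in the overlap was not tested. In the reverse direction, 29 of the 40 H3K4me3 peaks (72.5%) touched an ATAC-seq peak, 11 of the 13 that covered a start and 18 of the other 27. This share was not computed over the whole H3K4me3 list, so it cannot be called high or low. In width, the ATAC-seq peaks of the windows ranged from 97 to 1371 bp, and their median was 501 bp against 261 bp over the whole list. At the 5 main starts with an ATAC-seq peak, however, that peak had a median width of 580 bp against 900 bp over protein-coding genes.

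The annotation gives the Pax genes 56 distinct start positions. Positions of a gene within 500 bp of the next were joined, which left 34 start groups. H3K4me3 covered 21 of these, against 36.1% of the 52546 start groups of protein-coding genes, and ATAC-seq covered 13, against 36.2%. Both kinds of peak were found at 12 groups, H3K4me3 alone at 9, ATAC-seq alone at 1, and neither at 12. These combinations were not computed over the start groups of all protein-coding genes, so they have no background. Start groups with a protein-coding transcript were covered by H3K4me3 in 17 of 22 cases and those with noncoding transcripts only in 4 of 12. Of these 12, 7 belong to Pax6. The 2 shares were not computed over the start groups of all protein-coding genes, so this contrast has no background. Start groups that share a peak are not separate observations.

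The genes differed in how their alternative starts were covered. All start groups of Pax1, Pax2, Pax3, Pax7 and Pax9 lay under H3K4me3, and none of Pax4 did. Pax6 has 12 start groups, of which 7 were covered by H3K4me3 and 2 by ATAC-seq, those at 0 to 35 bp and at 6209 to 6627 bp. Its last 2 groups, at 16422 and 23583 bp, had neither. In Pax5 the groups at 26672 and 64764 bp were 17699 and 17562 bp from the nearest H3K4me3 peak. The distal start of Pax8 at 52517 bp, which has a noncoding transcript, lay under an ATAC-seq peak and 17214 bp from the nearest H3K4me3 peak.

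**Figure D3:**
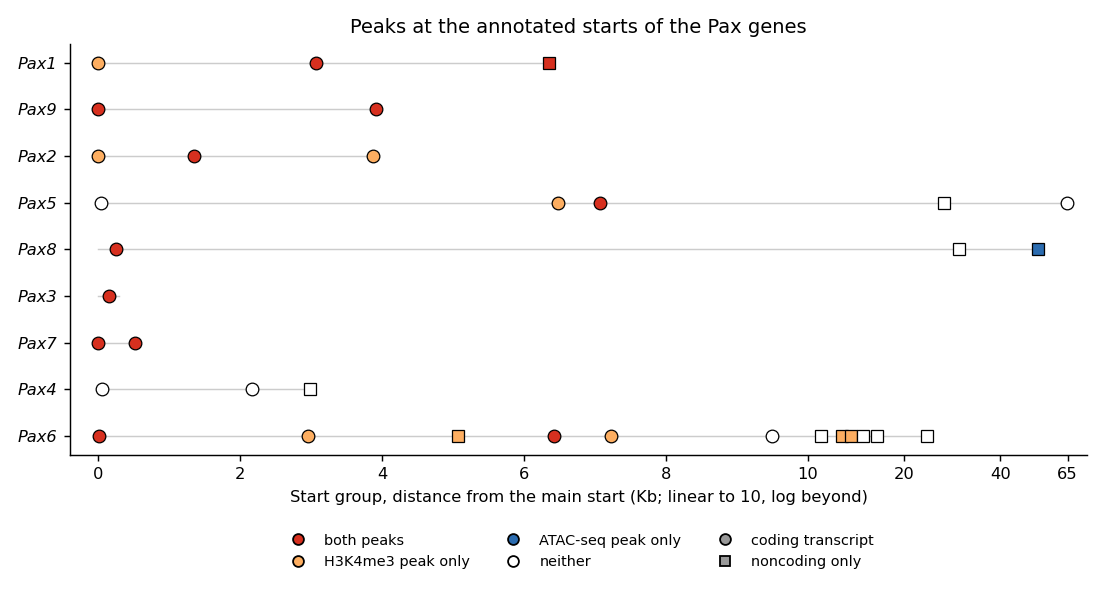
Start groups of each Pax gene, placed at the middle of the group by distance in Kb from the main start (linear to 10 Kb, logarithmic beyond). Colour gives the peaks that cover any start of the group, circles have a protein-coding transcript and squares do not. H3K4me3 covers 21 of the 34 groups and ATAC-seq covers 13.

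The starts of 6 other genes lay in the Pax windows: AI646519 at Pax1, 5730488B01Rik at Pax5, Pax6os1 and Paupar at Pax6, Gm27193 at Pax8 and Gm15524 at Pax9. None is annotated as protein-coding. H3K4me3 covered the start of all but Gm27193, and in these 5 cases the peak was counted for the Pax gene too. No ATAC-seq peak covered any of the 6 starts. These shares were not computed over other genes that are not protein-coding, so neither count can be called high or low.

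CpG were denser inside the H3K4me3 peaks than outside them in all 9 windows. In the windows of 6 genes, Pax2, Pax3, Pax5, Pax6, Pax7 and Pax9, there were 498 to 629 CpG, more than in 97.3% or more of protein-coding windows, whose median was 256. Pax1 had 375, and Pax8 and Pax4 had 215 and 208. Inside the H3K4me3 peaks the density was 2.39 CpG per 100 bases at Pax4 and between 3.62 and 4.94 at the other 8 genes, against a median of 4.08 over genes with a peak. Outside the peaks it was 0.644 at Pax8 to 1.53 at Pax2, against a median of 1.01. At Pax6, 86.4% of the CpG in the window lay in H3K4me3 peaks, and at Pax4 19.2% did.

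**Figure D4:**
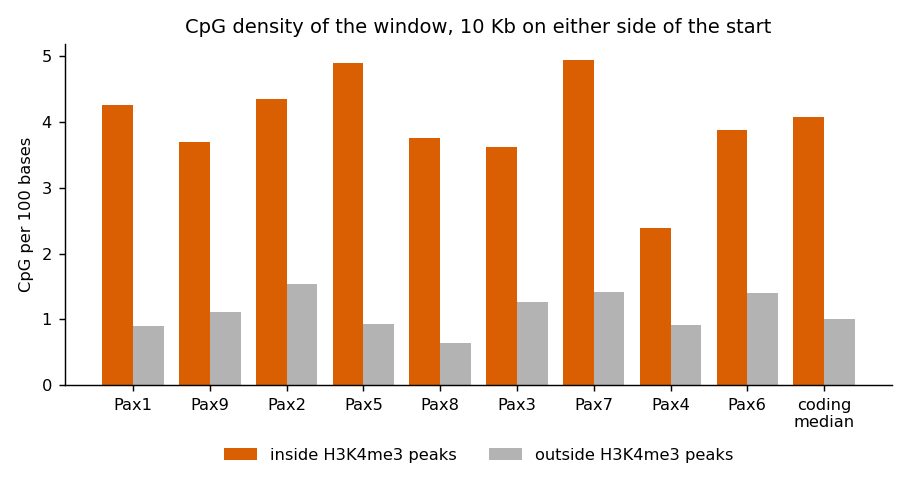
CpG per 100 bases of the reference genome within 10 Kb of the main start, inside (orange) and outside (grey) the H3K4me3 peaks, for each Pax gene and for the median of protein-coding genes with a peak in the window. Density is higher inside the peaks in all 9 genes and lowest inside the peak of Pax4, at 2.39.

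Other families of developmental transcription factors were set beside the Pax genes. The 17 T-box genes had a median summed width of 6639 bp and strongest fold enrichment of 18.7, the 44 Forkhead genes had 4631 bp and 24.4, and the 19 Sox genes had 6371 bp and 24.0. The Pax median of summed width was the largest of the 4 groups and that of fold enrichment the smallest, and the ranges of all 4 groups overlapped in both.

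**Figure D5:**
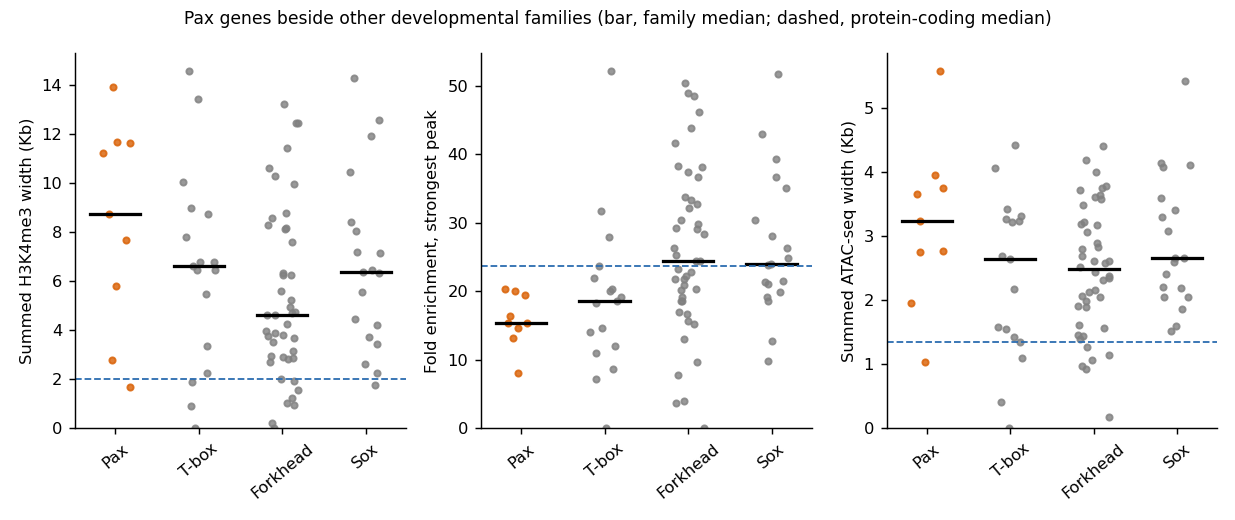
Summed H3K4me3 width in Kb, fold enrichment of the strongest H3K4me3 peak, and summed ATAC-seq width in Kb within 10 Kb of the main start, with 1 point per gene for the Pax genes (orange) and 3 other families (grey). Black bars are family medians and dashed lines are medians of all protein-coding genes. The Pax median is 8769 bp of H3K4me3 at a strongest fold enrichment of 15.4.

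By percentile ranks of 5 measures (number, summed width and strongest fold enrichment of H3K4me3 peaks, number and summed width of ATAC-seq peaks), 7 of the Pax genes were set beside the 80 genes of these 3 families. Pax9 was nearest to Foxf2, at a distance of 1.11 percentile points, Pax2 to Tbx3, at 1.71, and Pax5 to Foxf1, at 2.13. Pax1 was nearest to Sox15 (6.76), Pax7 to T (11.8), Pax4 to Tbx22 (19.6) and Pax8 to Sox10 (27.9).

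The labelled cell type was checked against marker genes in the H3K4me3 list. At the main start 7 of the 8 embryonic stem cell markers had a peak, with fold enrichments of 9.74 to 42.9, among them Pou5f1, Sox2 and Nanog. The other, Esrrb, had one at another annotated start. The share of all protein-coding genes with a peak at any annotated start was not computed, so a count by that rule has no background. Of 8 fibroblast markers, which feeder cells would express, 5 had a peak at the main start, at 13.9 to 20.4-fold. Col3a1, Postn and Lum had none. Over all protein-coding genes 61.1% of main starts had a peak, and the count of 5 of 8 lies near that share. The strongest peaks of the Pax genes, at 8.02 to 20.3-fold, overlapped the ranges of both marker sets. That of Pax4 lay below both ranges, and that of Pax6 below the range of the 5 fibroblast markers. The part of feeder cells in the Pax or marker peaks was not tested.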

How the data were processed

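The authors mapped ATAC-seq reads of F123 cells with Bowtie 1.1.2 to mm10, moved read ends by 4 bp for the Tn5 insertion, and called peaks with MACS2 2.1.1.20160309. They deposited the pooled peaks found in both replicates, as positions with no score. The H3K4me3 peaks were made by the authors with the ENCODE histone ChIP-seq pipeline at default parameters, and its aligner, threshold and build are not given in the sources used here. That deposited list gives a fold enrichment (a ratio over the caller's background) and −log10 q-values and p-values. Its coordinates were used as mm10.

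A peak was at a start when they shared 1 bp, and in a window when it shared 1 bp with the 10 Kb on either side of the 5′ end of the gene record in GENCODE M21. Summed widths count whole peaks. Overlaps were computed with Python 3.11.15, numpy 2.4.6 and pandas 2.3.3, tested on simulated data, and checked against bedtools 2.31.1, which gave the same number of peaks in all 21938 windows. Figures used matplotlib 3.10.9. Promoters and genome sequence came from RefSeq (GRCm38.p6). With 1 list for both replicates and no read counts, depth is unknown and no test was made. The members and gene lists were chosen with earlier results of these data known. Named were all Pax genes, genes that start in a Pax window, and the nearest gene of the T-box, Forkhead and Sox families by percentile ranks. A further gene list set for comparison, whose genes were left out of that search, and the nearest genes of Pax3 and Pax6 are not reported here. Alternatives were another start, midpoint overlap, a peak within 1 Kb, windows of 5 and 20 Kb, clipped widths, start positions counted alone, H3K4me3 peaks with −log10 q of at least 10, and the widest 50% of ATAC-seq peaks. PLAC-seq and input samples were not used here.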

Additional observations from a re-analysis of the deposited data

How the results depend on the processing

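No paired analysis was possible because the replicates of an assay were merged into 1 list, and leaving out a replicate was not run for the same reason. Of 42 alternative values for the main counts and medians, 32 stayed within 1.5 times. By midpoints, 3 Pax genes had H3K4me3 and 8 had ATAC-seq at the main start, against 41.4% and 64.2% of protein-coding genes. With a peak allowed within 1 Kb, ATAC-seq was at 8 main starts, against 71.0%, and at 24 start groups. The 5 Kb window held 26 H3K4me3 and 33 ATAC-seq peaks, with median summed widths of 5801 and 1861 bp, against 1795 and 990 bp over protein-coding genes. Start positions counted alone gave 40 of 56 with H3K4me3 and 26 with ATAC-seq. For start groups within 1 Kb of a peak and for positions counted alone, no share over all protein-coding genes was computed. The smaller window holds fewer bases, and separate positions outnumber start groups. No cause of these differences was tested.

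Of 180 alternative values for the paralogue pairs, 132 stayed within 1.5 times, 37 moved further without reversing, and 11 reversed in direction. Within 20 Kb, Pax3 minus Pax7 in strongest fold enrichment was 20.2 in place of 1.83. From the principal start, Pax1 exceeded Pax9 by 1 ATAC-seq peak and 612 bp, and in the 5 Kb window by 642 bp. In the 5 Kb window the strongest fold enrichment of Pax2 minus Pax5 was 2.52 and that of Pax5 minus Pax8 was -2.61. There the summed ATAC-seq width of Pax2 minus Pax8 was -436 bp, and Pax5 minus Pax8 was -83 bp and -1 peak. In the 20 Kb window Pax5 minus Pax8 was -29 bp and -2 peaks, and Pax2 minus Pax5 was 1107 bp.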

Other observations

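Beyond the windows around the starts, whole gene records extended by 10 Kb at either end held 1 H3K4me3 peak at Pax4 to 10 at Pax3 and Pax6. Per 100 Kb, Pax6 had 20.6 H3K4me3 peaks and 37.1 ATAC-seq peaks, against medians of 2.88 and 11.1 over protein-coding genes. Pax9 had 17.1 and 19.5. Pax5, the longest gene of the family at 185731 bp, had 3.40 and 12.2, close to those medians, with 25 ATAC-seq peaks in all. Pax8 was the member with the fewest H3K4me3 peaks for its length, at 2.67 per 100 Kb. The extended records ran from 27.0 Kb at Pax4 to 205.7 Kb at Pax5, against a median of 37.4 Kb. Those of Pax6 and Pax9 had 48.5 and 41.1 Kb. The part of length in these densities was not tested.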
